A study of Drosophila melanogaster and Drosophila pseudoobscura and Drosophila virilis with 4 samples.

Results

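Of the 19424 FAIRE-Seq peaks in the deposited table, 1040 (5.35%) were weakly open at a like level in all 3 *Drosophila* species. These peaks were selected on the deposited RPKM itself, the read count scaled for peak length and library size and then normalized between libraries. A peak was kept where the largest of its 4 values was below 30 RPKM and less than 2 times the smallest. All 4 libraries entered that choice, so the levels of the 1040 peaks and their ratios between libraries are given as a description, without a test.

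FAIRE-Seq recovers the DNA that cross-linked nucleosomes leave free, so that reads accumulate over enhancers, promoters and insulators. Such regions are occupied by transcription factors, and the accessibility of an enhancer usually changes with cell type and developmental stage. In an eye-antennal disc, the larval tissue that gives rise to the adult eye, antenna and head capsule, a region that is open in only some of the cells also appears as a low peak. A low peak in a whole disc can therefore not be told apart from one that is high in few cells.

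The discs were dissected from wandering larvae of the third instar raised at 25 °C. The libraries came from wild-type *D. pseudoobscura*, wild-type *D. virilis* and the *D. melanogaster* strains P{neoFRT}82B (FRT82 below), which carries a recombination target on arm 3R, and Canton S (Canton-S below), with 1 library each. The only replicate error is therefore the spread between the 2 *D. melanogaster* strains, which also differ in genotype. All positions are those of *D. melanogaster* FlyBase release 5 as deposited, with the start given as the base before the first base of the peak. The table pairs no peak with a gene, so the tissue label could not be checked against marker genes, and promoter, exon or intron annotation and the sequence of the peaks were not analysed here.

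The limit of 30 RPKM lay close to the middle of the table and not at its low end. In *D. pseudoobscura* 54.5% of all peaks were below it, against 55.6% in *D. virilis*, 52.8% in FRT82 and 53.2% in Canton-S. The largest of the 4 values was below 30 RPKM in 3430 peaks (17.7%), and 30.3% of those were less than 2-fold apart and thus weakly open. Among the peaks that reached 30 RPKM in some library, 31.6% were less than 2-fold apart. These shares of low and higher peaks were close.

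The weakly open peaks lay just under the limit rather than near 0. The largest value was 25 RPKM or more in 633 of them (60.9%), below 20 RPKM in 30 (2.88%) and below 15 RPKM in 0. The same gap at the low end held for the whole table. A value below 15 RPKM was common in each library taken alone, with 20.3% of all peaks in *D. pseudoobscura*, 21.7% in *D. virilis*, 22.2% in FRT82 and 23.0% in Canton-S. Nevertheless, no peak of the 19424 was below 15 RPKM in all 4, and the lowest largest value of any peak was 15.8 RPKM. The authors called peaks in each library and pooled them, so a region had to stand out in at least 1 library to be listed, and the table does not record which. They also excluded regions with no reads in a species and filtered on RPKM and length. The part of these steps in the missing low end was not tested.

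**Figure D1:**
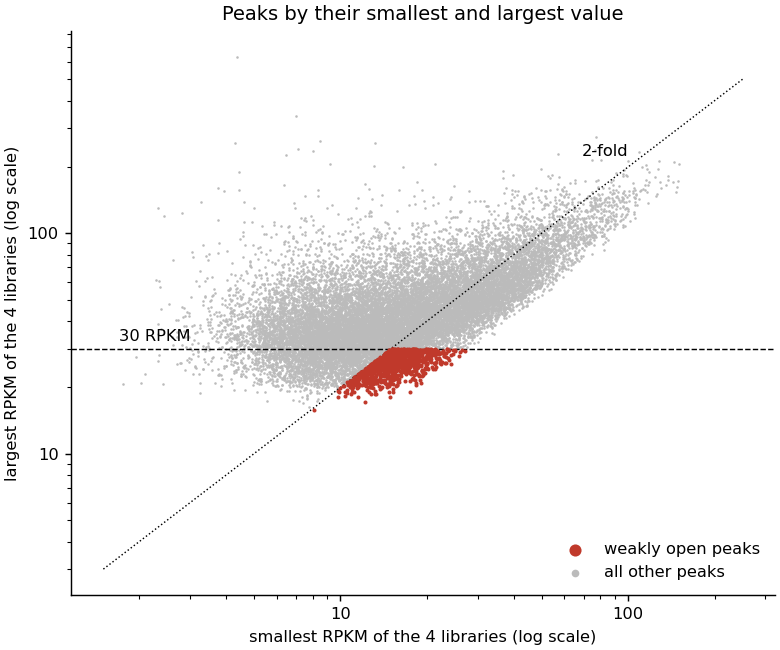
The smallest (x axis) and the largest (y axis) deposited RPKM of each of the 19424 peaks over the 4 libraries, both on log scales. The 1040 weakly open peaks (red) fill the corner below 30 RPKM (dashed line) and within 2-fold (dotted line), and no peak in the table has a largest value under 15.8 RPKM.

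The levels of the 1040 weakly open peaks were much alike in the 4 libraries, a likeness that the limits of the rule impose. They ran between 8.07 and 29.99 RPKM in *D. pseudoobscura* with a median of 20.1, and between 10.2 and 29.9 RPKM in *D. virilis* with a median of 21.0. In FRT82 the lowest, median and highest values were 9.82, 20.3 and 29.97 RPKM, against 10.6, 20.1 and 29.97 RPKM in Canton-S. The median ratio of largest to smallest value was 1.67. A total of 32 peaks (3.08%) were within 1.2-fold over all 4 libraries and 317 (30.5%) were 1.8-fold apart or more, so few members were even in the strict sense and many lay close to the fold limit.

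The evenest of them held nearly the same signal in every species. Among peaks with at least 50 reads in each library, the smallest ratio belonged to a peak of 549 bp on arm 3R at 3R:6459857-6460406. It had 29.2 RPKM in *D. pseudoobscura*, 27.2 in *D. virilis*, 28.8 in FRT82 and 28.5 in Canton-S, from 295, 187, 83 and 213 reads in that order of libraries. All 4 values lay within 1.07-fold. The next, a peak of 348 bp at 2R:15823327-15823675, had 27.1 RPKM in *D. pseudoobscura*, 26.6 in *D. virilis*, 27.9 in FRT82 and 25.9 in Canton-S. The third, of 594 bp at 3L:10701704-10702298, had 25.0, 23.2, 25.8 and 24.4 RPKM in the same order of libraries. *D. virilis* was the lowest library in the first and the third and Canton-S in the second, and all of them fell in the upper part of the range below 30 RPKM. On 2L the evenest peak, of 762 bp at 2L:4981710-4982472, had 22.2 RPKM in *D. pseudoobscura*, 22.4 in *D. virilis*, 22.3 in FRT82 and 26.7 in Canton-S. On X it was a peak of 580 bp at X:1465648-1466228, with 20.02, 21.7, 20.5 and 18.9 RPKM in that order. On 2L Canton-S alone stood above the rest, while on X no library stood apart. No weakly open peak of chromosome 4 had 50 reads in each library.

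At the other end, the 3 lowest members all lay on arm 2R and rested on few reads. The peak of 285 bp at 2R:13753899-13754184 had 8.07 RPKM in *D. pseudoobscura*, 15.8 in *D. virilis*, 14.8 in FRT82 and 13.9 in Canton-S, from 33, 59, 24 and 66 reads. *D. pseudoobscura* was the low library there, and its value was the lowest of any member in any library. The peak at 2R:6412118-6412289 had 12.2, 17.1, 14.4 and 14.5 RPKM, and that at 2R:12106466-12106655 had 11.5, 13.7, 12.9 and 18.1 RPKM, in the same order of libraries. Both FRT82 values rested on 14 reads.

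**Figure D2:**
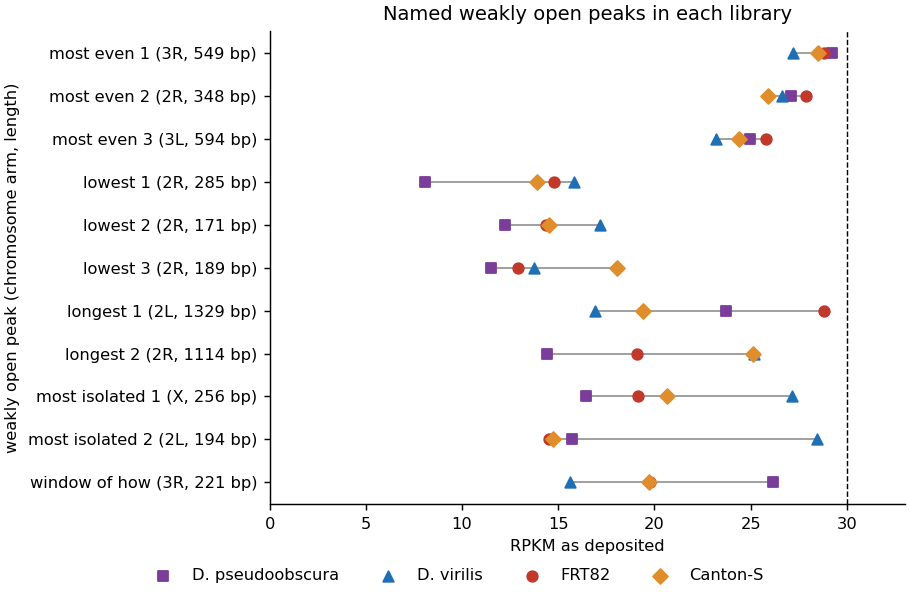
Deposited RPKM (x axis) of 11 weakly open peaks in *D. pseudoobscura* (squares), *D. virilis* (triangles), FRT82 (circles) and Canton-S (diamonds), 1 row per peak, with a grey line over its range and the 30 RPKM limit dashed. The evenest peaks sit between 23.2 and 29.2 RPKM, the 3 lowest between 8.07 and 18.1 RPKM, and in both isolated peaks *D. virilis* is the high library.

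Membership was decided by small differences at both limits. Just inside 30 RPKM were 2L:10774119-10774382, at 29.99 RPKM in *D. pseudoobscura*, 17.9 in *D. virilis*, 24.2 in FRT82 and 19.5 in Canton-S, and 2R:19949317-19949550, at 16.3, 25.4, 22.2 and 29.97 RPKM in that order. Just outside were 2R:7292623-7292978, whose FRT82 value was 30.0 RPKM, and 3R:10201260-10202233, whose *D. pseudoobscura* value was 30.03 RPKM. Just inside 2-fold was X:3036107-3036622, with 23.5 RPKM in *D. pseudoobscura* and 11.7 in FRT82. With it stood 3R:20425670-20425848, with 14.8 RPKM in *D. virilis* and 29.6 in Canton-S. Just outside were 3R:25829905-25830147, with 21.4 RPKM in *D. virilis* and 10.7 in FRT82, and 3L:11700406-11700659, with 12.2 RPKM in *D. pseudoobscura* and 24.5 in FRT82. These distances from the limits are smaller than the spread between the strains in a typical member, whose median SD was 0.23 on the log2 scale.

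The number of members followed both limits closely. It was 407 with an upper limit of 25 RPKM and 2301 with 40 RPKM, and 269 with a fold limit of 1.5 and 2347 with a fold limit of 3.

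No library was the high one in most of the members. *D. virilis* was highest in 338 (32.5%), *D. pseudoobscura* in 252 (24.2%), FRT82 in 210 (20.2%) and Canton-S in 240 (23.1%). Over all peaks these shares were 30.8% for *D. virilis*, 28.4% for *D. pseudoobscura*, 19.8% for FRT82 and 21.0% for Canton-S. The median log2 ratio of the members was 0.01 for *D. pseudoobscura* over *D. melanogaster* and 0.07 for *D. virilis* over *D. melanogaster*, where *D. melanogaster* is the mean log2 RPKM of its 2 strains. The median absolute log2 ratio was 0.31 and 0.34 for these 2 comparisons, against 0.32 for FRT82 over Canton-S. The fold limit applies to all 4 libraries and bounds these values. Over all peaks these medians were 0.60 for *D. pseudoobscura*, 0.68 for *D. virilis* and 0.38 for the strains.

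Differences of 1.5-fold or more remained in some members. *D. pseudoobscura* was that much higher than *D. melanogaster* in 83 members (7.98%, against 25.9% of all peaks) and that much lower in 98 (9.42%, against 25.4%). *D. virilis* was higher in 129 (12.4%, against 27.1%) and lower in 81 (7.79%, against 28.6%). FRT82 was higher than Canton-S in 106 (10.2%, against 16.6%) and lower in 120 (11.5%, against 14%). The fold limit of the rule holds these shares down, so nothing is read from them.

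The reads behind a member were few, most of all in FRT82. The members together held 122480 reads in *D. pseudoobscura*, 93612 in *D. virilis*, 37953 in FRT82 and 103247 in Canton-S, out of 4733792, 3009250, 1386805 and 3407230 reads in all peaks of those libraries. The median member had 99, 75, 30 and 85 reads in the same order, against 146, 98, 44 and 113 over all peaks. Under 20 reads were found in 180 members in FRT82 and in 1 in *D. virilis*, but in 0 in *D. pseudoobscura* and in 0 in Canton-S. In total 860 members (82.7%) had at least 20 reads in every library. The first quartile in FRT82 was 22 reads in the members and also 22 over all peaks, so its low counts were not particular to the members.

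Counting error alone gives log2 ratios a certain spread, and the members exceeded it in every pair of libraries. The SD of the log2 ratio over the 1040 peaks was 0.46 for *D. pseudoobscura* over Canton-S, against 0.22 from Poisson counting error, a ratio of 2.07. For *D. virilis* over Canton-S it was 0.50 against 0.24, a ratio of 2.13. With FRT82, the library of fewest reads, it was 0.47 against 0.31 for *D. pseudoobscura* over FRT82, 0.47 against 0.32 for *D. virilis* over FRT82 and 0.45 against 0.32 for FRT82 over Canton-S. The error counted here is that of the reads only and not that of dissection or library preparation. The fold limit caps every SD, so pairs of libraries are not compared on them.

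Correlations between libraries were low in the narrow range of the members. Across the 1040 peaks, Pearson's r of log2 RPKM was 0.181 between *D. pseudoobscura* and Canton-S, -0.146 between *D. virilis* and Canton-S, -0.0763 between *D. pseudoobscura* and *D. virilis* and 0.247 between FRT82 and Canton-S. Among the 5048 peaks that were equally even but higher, the same pairs had r of 0.743, 0.742, 0.721 and 0.814. The limits on level and fold cut the range on which r depends, and all values were normalized together, so these are descriptions. The higher peaks also span a wider range of levels, so the 2 classes are not compared on r.

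The rule can be examined in a library that it did not use. Peaks were chosen again on 3 libraries only, by the same limits of 30 RPKM and 2-fold, and the library left out was then read. A peak had to be weak and even over both *D. melanogaster* strains and *D. virilis* in 3116 cases, and *D. pseudoobscura* was below 30 RPKM in 1659 of these (53.2%, Wilson 95% interval 51.5 to 55.0%), against 54.5% of all peaks. Left out in its turn, *D. virilis* was below 30 RPKM in 1920 of 3286 peaks (58.4%, 56.7 to 60.1%), against 55.6% of all peaks. Both shares were close to those of all peaks under the deposited normalization. With 1 factor per library they were further from them. *D. pseudoobscura* was then below 30 RPKM in 59.1%, against 54.6% of all peaks, and *D. virilis* in 65.0%, against 58.6%. A region weak in 3 libraries may be in the table only for a call in the fourth, so these shares describe listed peaks, and the part of the listing in them was not tested.

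The strains gave another picture. FRT82 was below 30 RPKM in 1396 of the 1969 peaks chosen without it (70.9%, 68.9 to 72.9%), against 52.8% of all peaks, and Canton-S in 1451 of 2011 (72.2%, 70.2 to 74.1%), against 53.2%. These 2 choices contained the sister strain, which those for *D. pseudoobscura* and *D. virilis* could not, so species and strains were not read on equal terms. The intervals cover counting of peaks only, and peaks of 1 library are not replicates. Over the chromosome arms, with chromosome 4 left out, the share ran between 44.3 and 59.5% for *D. pseudoobscura* and 53.1 and 61.0% for *D. virilis*. It ran between 66.7 and 74.0% for FRT82 and 67.6 and 76.0% for Canton-S. The sister strain was in the choice for the strains only, so species and strains are not compared on these ranges. A lower limit meets the floor of the table. With 20 RPKM in place of 30, the share below it was 3.11% in *D. pseudoobscura*, 2.82% in *D. virilis*, 15.7% in FRT82 and 10.4% in Canton-S. Among all peaks 31.7%, 34.7%, 33.2% and 33.8% were below 20 RPKM in those libraries. Only 68 of the 19424 peaks (0.350%) were below 20 RPKM in every library. That holds the left-out shares down at this limit, so nothing is read from them.

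**Figure D3:**
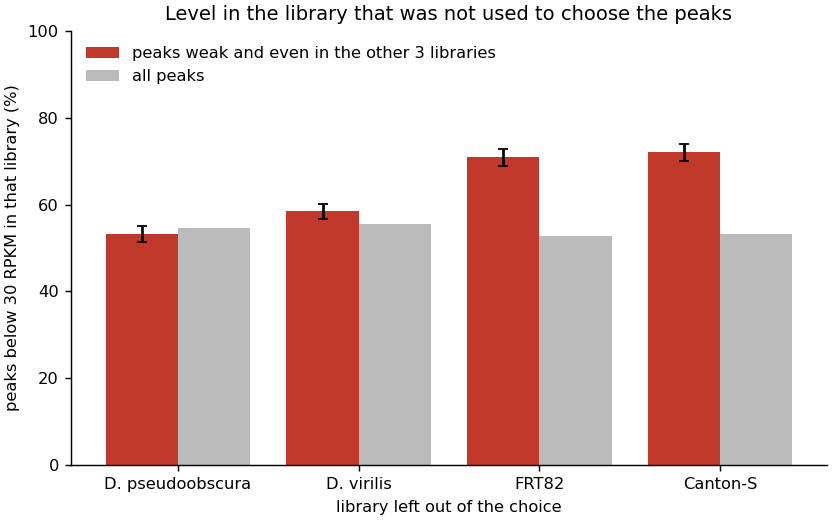
Share of peaks below 30 RPKM (y axis, %) in the library left out of the choice (x axis), for the peaks that were weak and even in the other 3 libraries (red, with Wilson 95% intervals) and for all 19424 peaks (grey). Under the deposited normalization the red and grey bars are 53.2% and 54.5% in *D. pseudoobscura* and 58.4% and 55.6% in *D. virilis*. They are 70.9% and 52.8% in FRT82, and 72.2% and 53.2% in Canton-S.

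The fold limit behaved in the same way. Of the peaks chosen on 3 libraries, 38.1% were still less than 2-fold apart with *D. pseudoobscura* added, 36.3% with *D. virilis*, 60.7% with FRT82 and 61.2% with Canton-S. Peaks that were as even but reached 30 RPKM stayed within 2-fold in 70.7%, 65.0%, 85.4% and 86.0% of cases in that order of libraries. The weak peaks had the lower share in each of the 4 libraries. A weak peak may need the fourth library to be listed more often than one already at 30 RPKM. Weak peaks also held fewer reads, with a median in FRT82 of 30 in the members and 96 in even and higher peaks. The part of either in the difference was not tested.

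Where the left-out library broke the pattern it could be far higher. A value of 60 RPKM or more occurred in 99 of the 3116 peaks in *D. pseudoobscura* (3.18%) and in 135 of the 3286 in *D. virilis* (4.11%). Among the peaks chosen without a strain, 0 of 1969 reached 60 RPKM in FRT82 and 1 of 2011 in Canton-S. Of all peaks 10.4% reached 60 RPKM in *D. pseudoobscura*, 9.86% in *D. virilis*, 9.88% in FRT82 and 9.95% in Canton-S. High values in the fourth library were therefore rarer than in the table at large, and rarest in a strain whose sister was weak.

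With a choice on 2 libraries the share depended on whether the sister strain was in it. Chosen on *D. pseudoobscura* and *D. virilis*, without either strain, 4904 peaks were below 30 RPKM in 60.7% of cases in FRT82, against 52.8% of all peaks, and in 63.9% in Canton-S, against 53.2%. The 5077 peaks weak and even in *D. virilis* and Canton-S were below 30 RPKM in 57.6% of cases in *D. pseudoobscura* and in 78.3% in FRT82. The 5093 peaks chosen on *D. virilis* and FRT82 gave 60.04% in *D. pseudoobscura* and 80.4% in Canton-S. With *D. pseudoobscura* and Canton-S in the choice (5326 peaks) the shares were 64.1% in *D. virilis* and 79.4% in FRT82, and with *D. pseudoobscura* and FRT82 (5150 peaks) they were 61.9% in *D. virilis* and 79.9% in Canton-S. Weakness in *D. melanogaster* alone, in both strains (7348 peaks), gave 65.8% below 30 RPKM in *D. pseudoobscura*, against 54.5% of all peaks, and 67.6% in *D. virilis*, against 55.6%. The share in a strain was thus 78.3 to 80.4% where its sister was in the choice, and 60.7 and 63.9% where it was not, which overlaps the 57.6 to 67.6% of the species. All of these shares were above those of all peaks.

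The level in the fourth library was followed over all 19424 peaks as a function of the other 3. For a strain the other 3 included its sister strain, which they could not for a species, so the curves are not on equal terms. For *D. pseudoobscura* and *D. virilis* the relation turned at the low end. Where the geometric mean of the other 3 libraries was between 17.5 and 20 RPKM, the *D. pseudoobscura* median was 19.0 RPKM, but where it was below 10 RPKM the median was 33.7 RPKM and only 29.7% of 704 peaks were below 30 RPKM. *D. virilis* had its lowest median, 17.3 RPKM, for a mean between 20 and 25 RPKM, and 30.6 RPKM below 10 RPKM, where 48.4% of 907 peaks were below 30 RPKM. The peaks of lowest signal in the other 3 libraries were thus listed at higher levels in these species than peaks of middling signal. Canton-S followed the other 3 down to 10.1 RPKM below 10 RPKM, a bin of 117 peaks of which 82.1% were below 30 RPKM. FRT82 followed them down to 12.0 RPKM for a mean between 10 and 12.5 RPKM and was at 14.5 RPKM in the lowest bin of 181 peaks. With 1 scaling factor per library in place of the deposited normalization, the *D. pseudoobscura* median in the lowest bin was 34.6 RPKM, with 21.2% of 449 peaks below 30 RPKM, and that of *D. virilis* was 29.6 RPKM, with 51.3% of 708 peaks below it. FRT82 then turned as well, at 28.5 RPKM in the lowest bin of 273 peaks and 14.9 RPKM in the next, while Canton-S was at 14.9 RPKM in the lowest bin of 267 peaks and 14.7 RPKM in the next. The difference between FRT82 and the other species at the low end therefore depended on the normalization. Besides passing the filters, a region needed a call in only 1 library to be listed, and the part of this in the turn was not tested.

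**Figure D4:**
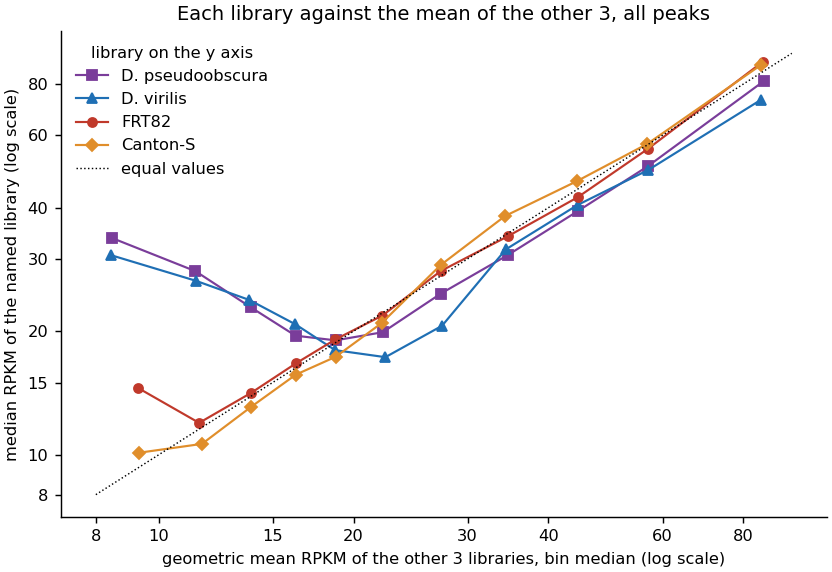
Median RPKM of 1 library (y axis) against the geometric mean of the other 3 (x axis, bin medians), both on log scales, over all 19424 peaks. Canton-S stays near the dotted line of equal values down to 10.1 RPKM, whereas *D. pseudoobscura* and *D. virilis* turn upward below about 20 RPKM to 33.7 and 30.6 RPKM in the lowest bin. The other 3 include a sister strain for Canton-S and FRT82 only.

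The length of a peak was no part of the rule, although RPKM is divided by it. The median member was 276 bp long (151 to 1329 bp), against 289 bp over all peaks, 228 bp for weak peaks that were uneven and 429 bp for even peaks that reached 30 RPKM. In all, 38 members (3.65%) were 700 bp or longer, against 8.69% of all peaks. Among the 3430 peaks below 30 RPKM, longer ones were even more often. The share less than 2-fold apart was 21.6% between 151 and 180 bp, 21.9% between 181 and 216 bp, 28.5% between 217 and 269 bp, 31.9% between 270 and 357 bp and 47.7% between 358 and 1329 bp. With the geometric mean level held between 15 and 20 RPKM, it was still 24.5%, 28.3% and 36.0% over the short, middle and long peaks. Evenness also moved with reads and level, both of which enter the rule, so nothing is read from it. Split by the FRT82 count, the share was 4.95% for 2 to 13 reads, 18.4% for 14 to 18, 32.0% for 19 to 25, 42.5% for 26 to 36 and 55.8% for 37 to 201 reads. Over 5 groups of rising geometric mean level it was 0.729%, 6.27%, 20.4%, 44.6% and 79.6%. A longer peak at the same RPKM holds more reads, and the parts of length and counting error were not tested separately.

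**Figure D5:**
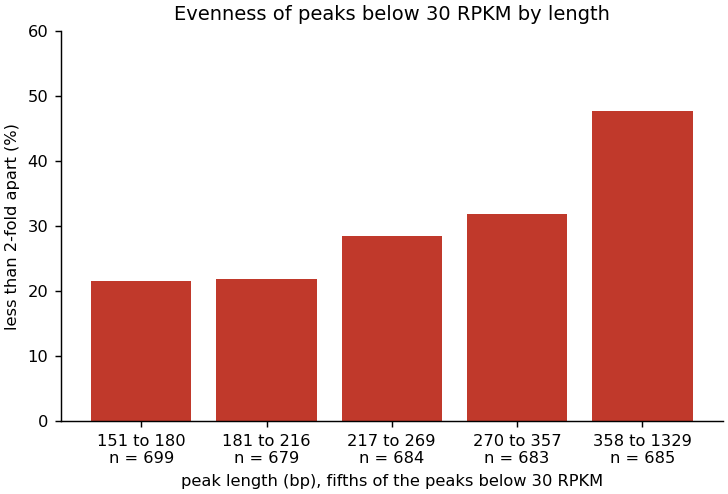
Share of the peaks below 30 RPKM that were less than 2-fold apart over the 4 libraries and thus weakly open (y axis, %), by groups of peak length of about equal size (x axis, bp, with the number of peaks). The share is 21.6% in the shortest group and 47.7% in the longest.

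The 2 longest members differed between libraries in opposite ways. The peak of 1329 bp at 2L:1408426-1409755 had 23.7 RPKM in *D. pseudoobscura*, 16.9 in *D. virilis*, 28.8 in FRT82 and 19.4 in Canton-S, from 572, 298, 201 and 393 reads. Its strains stood further apart than *D. pseudoobscura* from either of them. The peak of 1114 bp at 2R:17603736-17604850 had 14.4 RPKM in *D. pseudoobscura*, 25.1 in *D. virilis*, 19.1 in FRT82 and 25.1 in Canton-S. Here *D. virilis* equalled Canton-S and *D. pseudoobscura* was lowest. The shortest members were 6 peaks of 151 bp, of which 3 lay on 2R and 1 each on 3L, 3R and 4. This was also the shortest length of any listed peak, after the authors' filter on length. The one on chromosome 4, at 4:1057387-1057538, had 11.1 RPKM in *D. pseudoobscura*, 19.1 in *D. virilis*, 15.2 in FRT82 and 18.5 in Canton-S, from 26, 39, 13 and 43 reads.

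All major arms held weakly open peaks, with X holding the smallest share. They made up 5.94% of the peaks of 2L (221), 5.70% of 2R (224), 5.64% of 3L (250), 4.98% of 3R (239), 6.22% of chromosome 4 (12) and 3.98% of X (91). X thus had 8.75% of the members and 11.8% of all peaks. Among the peaks below 30 RPKM on each arm, the even share was 32.4% on 2L, 32.2% on 2R, 31.4% on 3L, 28.0% on 3R, 22.2% on 4 and 27.1% on X. A further 2 members lay on 2RHet and 1 on 3LHet, parts of the heterochromatin assembled apart. The median log2 ratio of *D. pseudoobscura* over *D. melanogaster* among members was -0.02 on 3L, against -0.21 over all peaks of that arm. On X it was 0.12, against 0.16 over all peaks. On chromosome 4 it was -0.05, against -0.43 over all peaks. The fold limit bounds the ratios of the members, so nothing is read from these differences. As background, 3L corresponds to part of the X chromosome in *D. pseudoobscura*.

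Along the arms the members were spread widely, with a few dense stretches. Every 1 Mb window with at least 50 peaks (115 windows) held at least 1 of them. The first megabase of 3L had the most, 31 of its 278 peaks (11.2%), and the window of 2L between 14000000 and 15000000 had the second most, 23 of 180 (12.8%). The lowest shares were 1 of 140 peaks in the window of X between 6000000 and 7000000 and 1 of 106 in that between 3000000 and 4000000.

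Members lay about as close to other peaks as any peak, and their neighbours were usually higher. The median gap to the nearest peak was 458.5 bp, against 513 bp over all peaks, 684 bp for weak and uneven peaks and 398 bp for even and higher ones. The nearest peak was within 500 bp in 538 members (51.7%, against 49.4% of all peaks) and over 10000 bp away in 28 (2.69%, against 3.46%). The neighbour had the higher mean level in 680 members (65.4%, against 52.2% of all peaks) and was at least 2-fold higher in 183 (17.6%, against 13.5%). A weak peak has more room above it than below, so part of this is fixed by the choice. The neighbour was itself weakly open in 102 members (9.81%, against 5.30% of all peaks), weak and uneven in 144 (13.8%, against 11.6%), even and higher in 263 (25.3%, against 27.6%) and uneven and higher in 531 (51.1%, against 55.5%). Weakly open peaks thus had one of their own class as the nearest peak more often than all peaks did. So did each other class, with 18.6% for weak and uneven, 36.6% for even and higher and 58.3% for uneven and higher peaks. Adjoining peaks can share reads of 1 open region, and the part of this was not tested.

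In the order of peaks along the arms there were 873 single members, 70 runs of 2 and 9 runs of 3. At 5.35% of all peaks, most members would be single without any clustering, so nothing is read from these counts. A run of 3 on 2R contained the second evenest member and shows that neighbours need not vary together. Its first peak, 2R:15821970-15822540, had 14.6 RPKM in *D. pseudoobscura*, 21.8 in *D. virilis*, 13.8 in FRT82 and 22.5 in Canton-S. Its second, 2R:15822541-15823108, began 1 bp further on and had 20.5, 18.8, 28.2 and 19.0 RPKM in that order. FRT82 was the lowest library in the first and the highest in the second of these adjoining peaks. A run of 3 on 2L, in the dense window named above, had its peaks at 2L:14386835-14387303, 2L:14387562-14387745 and 2L:14387782-14387973. In *D. pseudoobscura* they had 27.0, 16.0 and 15.7 RPKM along the arm. The *D. virilis* values were 26.8, 23.5 and 25.8 RPKM. FRT82 had 28.5, 15.4 and 14.7 RPKM, against 22.9, 16.0 and 13.4 RPKM in Canton-S. The last 2 peaks were highest in *D. virilis*, whereas the first was not. These 2 of the 9 runs were singled out after their values were seen.

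The 2 most isolated members were both highest in *D. virilis*, which was the highest library in 32.5% of all members. On X the peak at X:22415388-22415644 was 109246 bp from any other and had 16.4 RPKM in *D. pseudoobscura*, 27.2 in *D. virilis*, 19.2 in FRT82 and 20.6 in Canton-S. On 2L the peak at 2L:2311408-2311602, 43356 bp from the next, had 15.7, 28.4, 14.5 and 14.7 RPKM in that order. In both, the strains were close to each other and *D. virilis* stood above all other libraries.

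Among the windows that the study shows, those around *so*, *pdm3*, *how*, *scrt* and *Dscam* were used here, and that of *fred* was not. They contained 22 peaks, 10 of them at *so* (*sine oculis*, a homeodomain transcription factor needed for eye formation), 2 at *pdm3*, a POU homeodomain factor, 9 at *how* (*held out wings*, an RNA-binding protein), 0 at *scrt* and 1 at *Dscam*, a cell adhesion molecule of neurons. These are counts of the windows and not of whole genes. For *scrt* and *Dscam* the paper gives the position of a single regulatory region. It shows *so* for conserved peaks, *pdm3* for a gain in *D. melanogaster* and *how* for a peak higher in *D. pseudoobscura*. Weakly open peaks made up 5.35% of all peaks. Of the 22, 1 was weakly open, in the window of *how*, too few to read anything from. That peak, of 221 bp at 3R:17872363-17872584, had 26.2 RPKM in *D. pseudoobscura*, 15.6 in *D. virilis*, 19.8 in FRT82 and 19.7 in Canton-S, from 106, 45, 24 and 66 reads. The strains differed by less than the counting error of 24 and 66 reads there, *D. pseudoobscura* was higher and *D. virilis* lower. Its nearest peak was 2380 bp away and had a mean level of 75.9 RPKM.

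The deposited normalization decided part of the membership. Over 60% of the values of each library occurred, to 10 decimals, in each other library, while the order of the peaks in a library was that of its count per base pair. In each library the values thus follow a scale common to all. Against an RPKM computed from the deposited counts with the reads in all peaks as depth, the deposited values of the members were 0.268 times as high in *D. pseudoobscura*, 0.227 in *D. virilis*, 0.253 in FRT82 and 0.226 in Canton-S, so that weak peaks were scaled differently in the 4 libraries. With 1 factor per library, 1200 peaks met the rule. Of these, 898 were members, which is 86.3% of the 1040 and 74.8% of the 1200. The other 142 members were lost to the fold limit and 0 to the level.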

How the data were processed

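Reads were aligned by the authors with Bowtie2, each species against its own assembly, and the other species' alignments were placed on the *D. melanogaster* genome by liftOver. F-Seq peaks of the single libraries were pooled and HTSeq counted the reads. Regions with no reads in a species were excluded by the authors. The paper also gives filters on RPKM and on length for these peaks, and the shortest listed peak was 151 bp long. The table holds the deposited read count of each peak, not normalized, and its RPKM, which the authors scaled for length and depth and normalized between libraries by a method not given in the sources used here. Placing alignments on another genome by liftOver can lose reads in the other species alone.

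The rule, ratios, positions and shares were computed in Python 3.11.15 with numpy 2.4.6, pandas 2.3.3 and scipy 1.17.1, and figures with matplotlib 3.10.9. edgeR 4.0.16 and DESeq2 1.42.0 in R 4.3.3 gave scaling factors only. No p-value was computed: each library entered the choice, and peaks are not replicates. Log2 ratios used no pseudocount and no filter on low values. Counting error was Poisson on reads that carry no molecular identifiers, and Wilson intervals cover the counting of peaks only. The rule and the reading of a left-out library were checked on simulated Poisson counts. That simulation held neither the normalization between libraries nor the listing of peaks. The members and the lists were chosen with earlier results of these data known.

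Peaks are named as the 3 evenest with at least 50 reads in every library, overall and 1 per arm, the 3 with the lowest largest value, the 2 nearest each limit on either side, the 2 longest, the shortest, the 2 most isolated, the longest runs, the 1 Mb window with the most members, and those in windows the study shows. Alternatives were other limits, minimum reads, scalings, a pseudocount of 1 and each strain left out. The shares below 30 RPKM under these alternatives, and the relation to the other 3 libraries with 1 factor per library, were added after seeing the data. Sequence was not analysed here, as no genome of release 5 was used.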

Additional observations from a re-analysis of the deposited data

How the results depend on the processing

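Of 98 values recomputed under alternatives, over 21 results, 56 stayed within the spread set for them and 42 moved. The median ratios, lengths, gaps and arm shares were counted as within that spread. Still, the median log2 ratio of *D. pseudoobscura* went from 0.01 to -0.15 with 1 factor per library and to -0.06 with TMM factors. That of *D. virilis* went from 0.07 to 0.19 with DESeq2 size factors. The SD between the strains was 0.23 on the log2 scale in a typical member, which measures single peaks and not a median over 1040 of them. The number of members was 30 with an upper limit of 20 RPKM, 407 with 25, 2301 with 40, 269 with a fold limit of 1.5 and 2347 with 3, and 1969 to 2011 when either strain was left out. The neighbour share was 12.25% for peaks chosen with 1 factor per library.

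The share in range in the left-out library, that is below 30 RPKM and within 2-fold of the other 3, was 33.4% in *D. pseudoobscura*, 31.6% in *D. virilis*, 52.8% in FRT82 and 51.7% in Canton-S. With 1 factor per library it was 36.6% in *D. virilis*, 58.9% in FRT82 and 60.4% in Canton-S. TMM factors gave 31.6% in *D. pseudoobscura*, 57.3% in FRT82 and 60.3% in Canton-S, and DESeq2 size factors 56.7% in FRT82 and 61.6% in Canton-S. Quantile normalization gave 36.1%, 35.5%, 57.1% and 55.5% in the order of the first sentence. At least 10 reads gave 35.6% in *D. pseudoobscura* and 33.5% in *D. virilis*, and a limit of 20 RPKM gave 2.52%, 1.97%, 12.4% and 8.88% in that order.

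The share below 30 RPKM alone, whose alternatives were chosen after seeing the data, was 59.1% in *D. pseudoobscura*, 65.0% in *D. virilis* and 76.1% in FRT82 with 1 factor per library. It was 76.6% in FRT82 and 76.2% in Canton-S with TMM factors, 75.3% and 78.4% with DESeq2 size factors, and 57.1%, 63.4%, 73.3% and 74.6% in the 4 libraries with quantile normalization. At least 10 reads gave 55.5% in *D. pseudoobscura*, and 20 RPKM gave 3.11%, 2.82%, 15.7% and 10.4%. With 1 factor per library the share of all peaks was 54.6% in *D. pseudoobscura*, 58.6% in *D. virilis* and 52.8% in FRT82, so it moved by less than the left-out share in each of them. The cause was not tested.

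No paired analysis was possible because neither *D. pseudoobscura* nor *D. virilis* has a second library. The FRT82 library, with a median of 30 reads per member, limits the precision of every fold.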
